A study of Mus musculus with 6 samples.

Results

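The miR-379 to miR-410 cluster is a run of miRNA hairpins in the imprinted Dlk1-Dio3 region of mouse chromosome 12. Its members were taken by name from the 6 deposited tables, as any arm of 33 named hairpins, which gave 58 of the 622 mature miRNA names. The names comprised 27 arms from the 5′ side of a hairpin (5p) and 31 from the 3′ side (3p). Both arms were listed for 25 hairpins and a single arm for the other 8. None of the 58 names was repeated in the tables.

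The small RNA libraries were made from brains of C57BL/6J mice, a common inbred strain, in 2 groups of 3 libraries. The GCI libraries 1, 2 and 3 came from mice whose carotid arteries were ligated on both sides for 20 minutes, described by the series as cerebral ischemia-reperfusion. The Sham libraries 3, 6 and 7 came from the sham operation group, with no treatment given in the labels. The sources used here do not give age, sex, brain region or time of reperfusion, nor do they state that libraries came from different mice, so that p-values cover only the spread among these libraries, which may be technical.

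Imprinting silences the paternal copy of the cluster, and its hairpins are cut from a long noncoding transcript of the maternal chromosome. The enzymes Drosha and Dicer leave a short duplex of both arms, of which usually a single arm, the guide, is kept in an Argonaute protein while the other, the passenger, is degraded. The cluster is expressed mainly in brain. In cultured rat neurons its transcription responds to activity through the factor Mef2, and several of its miRNAs act in dendrites and at synapses.

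The hairpins span chr12:109709060-109743795 (34736 bp, plus strand) in the RefSeq table for GRCm38.p6, in which 31 of the 33 hairpins and 55 of the 58 mature members had a match. Of the 31 hairpins, 12 lie inside the lincRNA gene Mirg in GENCODE vM21, 8 of them overlapping an annotated exon, and 19 lie upstream of it outside any other annotated gene. The sources used here do not name the genome build behind the deposited counts. The hairpins of miR-379 and miR-411 are shown first because they were among the cluster hairpins with the smallest p in the arm comparison below. No hairpin passed in that comparison. Both mature arms are in capitals.
Mir379: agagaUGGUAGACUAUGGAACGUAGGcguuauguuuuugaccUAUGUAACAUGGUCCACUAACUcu
Mir411: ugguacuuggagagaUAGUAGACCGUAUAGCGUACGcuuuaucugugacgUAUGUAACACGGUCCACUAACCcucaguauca

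Mir379 lies at chr12:109709060-109709125 and Mir411 at chr12:109710175-109710256, both on the plus strand. Their 3p arms share 20 of 22 bases and the whole seed, the bases 2 to 8 that pair with target mRNAs. They differ by U10C and U22C, counted from the 5′ end, with the miR-379-3p base first. Their 5p arms share 14 of 21 bases and differ within the seed by G2A. The mature sequences below, seeds in capitals, are those of the most abundant members, of members with known roles in neurons and of those with the smallest p-values.
miR-379-5p: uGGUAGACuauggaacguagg
miR-379-3p: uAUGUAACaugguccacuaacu
miR-411-5p: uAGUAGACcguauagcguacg
miR-411-3p: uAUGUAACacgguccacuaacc
miR-381-3p: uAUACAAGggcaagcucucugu
miR-300-3p: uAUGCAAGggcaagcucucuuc
miR-410-3p: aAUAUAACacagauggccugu
miR-134-5p: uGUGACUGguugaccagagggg
miR-329-3p: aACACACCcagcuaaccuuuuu
miR-376a-3p: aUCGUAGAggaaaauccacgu
miR-376b-3p: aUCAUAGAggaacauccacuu
miR-154-5p: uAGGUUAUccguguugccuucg
miR-377-3p: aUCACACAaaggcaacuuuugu
miR-758-3p: uUUGUGACcugguccacua

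The 55 members with a sequence had 53 different seeds. The shared ones were AUGUAAC, in miR-379-3p and miR-411-3p, and UGGAUAU, in miR-376b-5p and miR-376c-5p. miR-381-3p and miR-300-3p share 19 of 22 bases and differ in the seed by A4G, and miR-376a-3p and miR-376b-3p share 18 of 21 and differ in the seed by G4A. The sources used here do not give the number of mismatches allowed in read mapping, so reads could in part have been exchanged between such near copies. In mouse brain, adenosines of the miR-376 hairpins are also edited to inosine, which is read as G, and whether edited reads were counted is not given.

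With 1 entry per name the libraries held 1559288 to 2023475 counts in GCI and 1423905 to 1750612 in Sham. Neuronal markers were present, since all 10 names of a neuron-enriched list were detected in every library and together held 9.99% to 11% of normalized counts in GCI and 10.4% to 12.1% in Sham. A list of 9 epithelial and pituitary miRNAs, the miR-183 cluster, the miR-200 family and miR-375-3p, held 5.10%, 2.21% and 2.73% in GCI libraries 1, 2 and 3, against 0.202%, 0.514% and 0.724% in Sham libraries 3, 6 and 7. All 9 were detected in every library. Their part in the results below was not tested. With or without these 9 miRNAs in the fit, 0 cluster members passed the threshold, so this count cannot show their part. In bulk tissue, fewer cells of a type and less RNA per cell cannot be told apart.

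Of the 58 members, 51 were abundant enough for testing, and none passed the threshold between GCI and Sham. By the quasi-likelihood test of edgeR, adjusted by Benjamini-Hochberg over all 440 tested miRNAs, 10 (2.27%) passed an adjusted p of 0.05, all of them higher in GCI. Of these 10, 8 were on the epithelial and pituitary list. The smallest adjusted p of a member was 0.128, for miR-154-5p. DESeq2 called 1 member, miR-154-5p, as lower in GCI, against 26 of all 440 (5.91%) in either direction and 4 (0.909%) lower, and limma-voom called 0 members, against 10 of all 440. At an unadjusted p under 0.05, edgeR gave 8 members lower and 0 higher in GCI, against 28 of all 440 lower (6.36%) and 46 higher (10.5%). The log2 fold change was below 0 for 37 of the 51 members, against 243 of all 440 (55.2%), with a median of −0.22 for the members and −0.05 for all tested. The groups did not overlap for 8 of the 51, each time with GCI below Sham, against 51 of all 440 with GCI below (11.6%) and 45 with GCI above (10.2%).

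The mean share of the cluster in all counts was slightly higher in GCI, but lower over totals without the 5 most abundant miRNAs (8.89% in GCI and 9.11% in Sham). Its 58 names held 5.67%, 3.91% and 5.29% of counts in GCI libraries 1, 2 and 3, against 4.67%, 4.79% and 4.45% in Sham libraries 3, 6 and 7. Exact 95% binomial intervals, which cover counting error only, were no wider than 5.64% to 5.71% for GCI library 1. The mean share was 4.96% ± 0.925 in GCI and 4.64% ± 0.171 in Sham (SD, n = 3 each), and the groups overlapped. The sum was set largely by miR-379-5p and miR-381-3p, which together made up 70.6% to 80.2% of the cluster's counts in GCI and 71.7% to 74.0% in Sham. Without miR-379-5p the remaining members held 2.00%, 2.23% and 2.18% in GCI and 2.36%, 2.25% and 2.46% in Sham. These ranges of raw-count shares did not overlap, but the gap between them was smaller than the spread within either group. With counts scaled to a common library size, as for the CPM below, GCI library 2 lay above Sham library 6 and the groups overlapped.

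The members differed widely in level. Mean levels of the tested members over the 6 libraries, given as CPM, counts scaled to a common library size, ran from 5.61 to 25570 CPM, with 25 members at 100 CPM or more and 5 at 1000 CPM or more. Levels of different miRNAs also carry the ligation bias of the library kit. The 7 members not tested had 12 to 51 counts in all libraries together and at most 7.53 CPM in a library. They were miR-376c-5p, miR-377-5p, miR-381-5p, miR-410-5p, miR-494-3p, miR-541-3p and miR-543-5p. miR-381-5p and miR-541-3p had 0 counts in GCI library 1, where a count of 0 allows up to 1.92 CPM on the unscaled total. miR-494-3p had 3, 8 and 14 counts in GCI libraries and 7, 11 and 8 counts in Sham libraries.

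**Figure D1:**
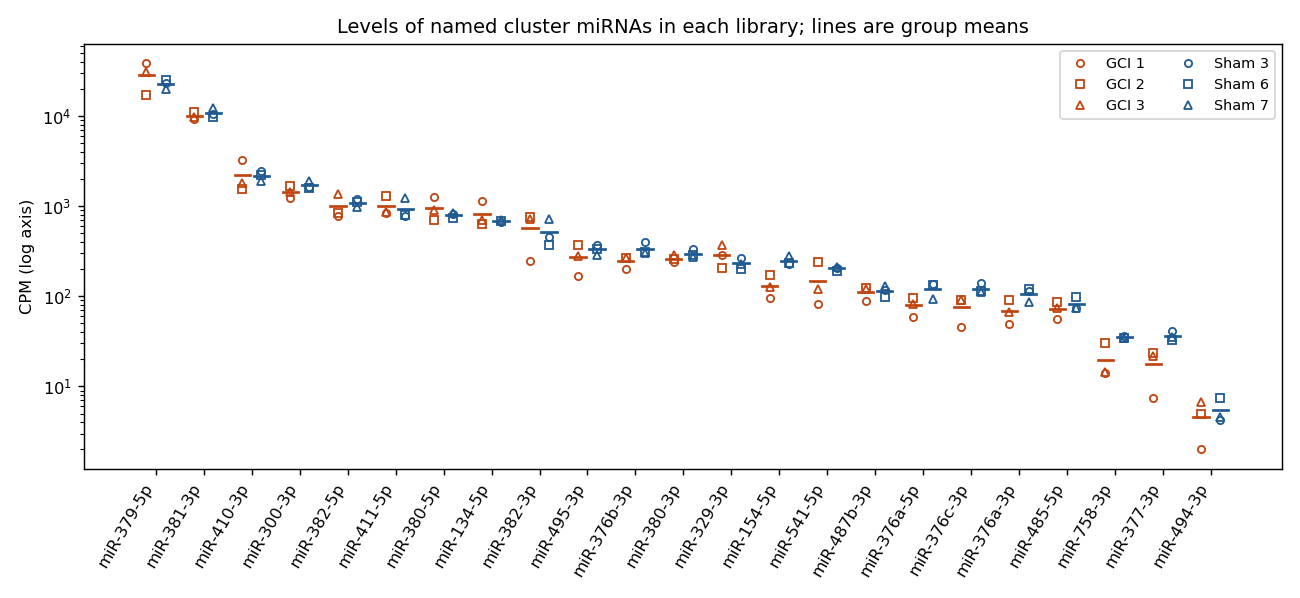
Levels of 23 cluster members in each library, in CPM on a log axis, with GCI libraries (orange) left of Sham libraries (blue) and lines at the group means. miR-379-5p, at a mean of 28570 CPM in GCI and 22570 CPM in Sham, and miR-381-3p stand far above the others, and GCI library 1 (circles) is the lowest GCI library for many of the less abundant members.

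miR-379-5p, the first miRNA of the cluster, was its most abundant member and ranked 10 among all 622 names by mean CPM. It had 38342, 17026 and 30342 CPM in GCI libraries 1, 2 and 3, and 22897, 24711 and 20102 CPM in Sham libraries 3, 6 and 7. GCI libraries 1 and 3 lay above all Sham libraries and GCI library 2 below them. The log2 fold change of 0.34 ± 0.29 (SE) had an adjusted p of 0.570, and its 95% interval allowed a GCI level of 0.799 to 2.00 times that of Sham. miR-381-3p, required for activity-dependent growth of dendrites in rat neurons, had 9145, 10999 and 9707 CPM in GCI and 10523, 9839 and 12087 CPM in Sham. The groups overlapped (log2 fold change −0.12 ± 0.19, interval 0.680 to 1.24 times).

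miR-410-3p, from the last hairpin of the cluster, had 3255, 1537 and 1817 CPM in GCI and 2439, 2214 and 1893 CPM in Sham. GCI library 1 was again the highest of all 6 and GCI library 2 the lowest. Its log2 fold change of 0.01 ± 0.28 turned to −0.03 with total-count scaling. miR-300-3p, the near copy of miR-381-3p, had 1214, 1674 and 1439 CPM in GCI and 1617, 1588 and 1899 CPM in Sham, a log2 fold change of −0.24 ± 0.20 with overlap. Over the 9 members at 500 CPM or more, 6 had a log2 fold change above 0 and 3 below, with a median of 0.10. Over all 25 members at 100 CPM or more, 9 were above and 16 below, with a median of −0.14. For the 26 tested members under 100 CPM 5 were above and 21 below, with a median of −0.25. The log2 fold change and log2 mean level had a Pearson's r of 0.27 across the 48 tested members with a sequence. Across all 371 tested miRNAs with a sequence it was 0.18, and these points are not replicates.

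The arms of miR-382 and miR-380 were also among the 12 most abundant members. miR-382-5p had 781, 836 and 1366 CPM in GCI and 1198, 1110.3 and 977 CPM in Sham, and miR-382-3p had 248, 764 and 715 CPM in GCI and 451, 367 and 719 CPM in Sham. GCI library 1 was the lowest of all 6 for each arm and the groups overlapped, with log2 fold changes of −0.14 ± 0.25 and 0.17 ± 0.41. miR-380-5p, a repressor of p53 known from neuroblastoma cells, had 1246, 703 and 896 CPM in GCI and 824, 737 and 836 CPM in Sham, while miR-380-3p had 237, 262 and 283 CPM in GCI and 330.4, 287 and 273 CPM in Sham. GCI library 1 was thus the highest of the 6 for the 5p arm and the lowest for the 3p arm, and the log2 fold changes were 0.25 ± 0.23 and −0.19 ± 0.19.

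Of the members known from dendrites, miR-134-5p represses the kinase Limk1 in dendrites of rat hippocampal neurons and so limits the size of dendritic spines. It had 1134, 636 and 693 CPM in GCI and 664, 688 and 699 CPM in Sham. GCI library 1 lay above all Sham libraries, GCI library 2 below them and GCI library 3 among them. The log2 fold change of 0.26 ± 0.24 (adjusted p = 0.587, edgeR, Benjamini-Hochberg) became −0.03 without GCI library 1. miR-329-3p, needed with miR-134 and miR-381 for activity-dependent growth of dendrites in rat neurons, had 286, 205 and 372 CPM in GCI and 266, 199 and 228 CPM in Sham. The groups overlapped, at a log2 fold change of 0.32 ± 0.25.

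miR-485-5p, which targets the synaptic vesicle protein SV2A in rat neurons, had 56.2, 85.4 and 73.4 CPM in GCI and 73.3, 98.6 and 74.2 CPM in Sham. miR-495-3p, a repressor of the growth factor Bdnf, had 166, 366 and 283 CPM in GCI and 375, 334 and 287 CPM in Sham. miR-541-5p, studied for neurite outgrowth in rat cells, had 83.0, 242 and 121 CPM in GCI and 208, 191 and 213 CPM in Sham. For each of these 3, GCI library 1 was the lowest of all 6 and the groups overlapped, with log2 fold changes of −0.19 ± 0.24, −0.29 ± 0.29 and −0.46 ± 0.35. miR-487b-3p had 87.7, 122 and 121 CPM in GCI and 118, 97.2 and 129 CPM in Sham, with overlap and a log2 fold change of −0.05 ± 0.22.

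The miR-376 hairpins, a tight group of related sequences in the middle of the cluster, were lower in GCI on every tested arm, though not past the threshold. miR-376a-3p had 49.5, 90.4 and 66.6 CPM in GCI and 113, 121 and 86.3 CPM in Sham, and its partner miR-376a-5p had 58.9, 96.6 and 81.6 CPM in GCI and 135, 135 and 94.4 CPM in Sham. Both overlapped only through GCI library 2, which exceeded Sham library 7. miR-376b-3p had 198, 269 and 264 CPM in GCI and 402, 311 and 299.8 CPM in Sham, without overlap. miR-376c-3p had 46.2, 91.6 and 90.2 CPM in GCI and 139, 114 and 111 CPM in Sham, also without overlap. The 5 tested arms, miR-376b-5p among them, had log2 fold changes of −0.67 to −0.47, and for 4 of them the unadjusted p was under 0.05 (edgeR adjusted p 0.276 to 0.295, Benjamini-Hochberg). Over all 440 tested miRNAs, 243 (55.2%) had a log2 fold change below 0 and 28 (6.36%) were lower at that unadjusted p. Of the 46 tested members outside miR-376, 32 were below 0 and 4 were lower at that p. The near identity of these sequences means that they may share reads and are not independent measurements.

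miR-154-5p, which names a family of related cluster miRNAs, had the smallest p of the members. It had 95.7, 172 and 126 CPM in GCI and 225, 232 and 281 CPM in Sham, without overlap. The log2 fold change was −0.91 ± 0.25, a GCI level of 0.534 times that of Sham with an interval of 0.361 to 0.789, and an adjusted p of 0.128 (edgeR, Benjamini-Hochberg) over all miRNAs. miR-377-3p had 7.36, 23.7 and 21.7 CPM in GCI and 41.5, 32.9 and 35.1 CPM in Sham, the lowest log2 fold change of the members at −1.03 ± 0.37. miR-758-3p had 14.1, 30.5 and 14.5 CPM in GCI and 36.6, 34.2 and 34.5 CPM in Sham (−0.84 ± 0.32). Neither of these overlapped, with adjusted p of 0.209 and 0.231 by edgeR and Benjamini-Hochberg. The groups also did not overlap for miR-679-5p, with 31.5, 23.7 and 31.9 CPM in GCI and 45.7, 40.4 and 34.5 CPM in Sham, a log2 fold change of −0.47 ± 0.23. At the other end, the highest log2 fold change was 0.56 ± 0.29, for miR-369-3p, with 201, 101 and 163 CPM in GCI and 103, 129 and 84.6 CPM in Sham and with overlap.

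**Figure D2:**
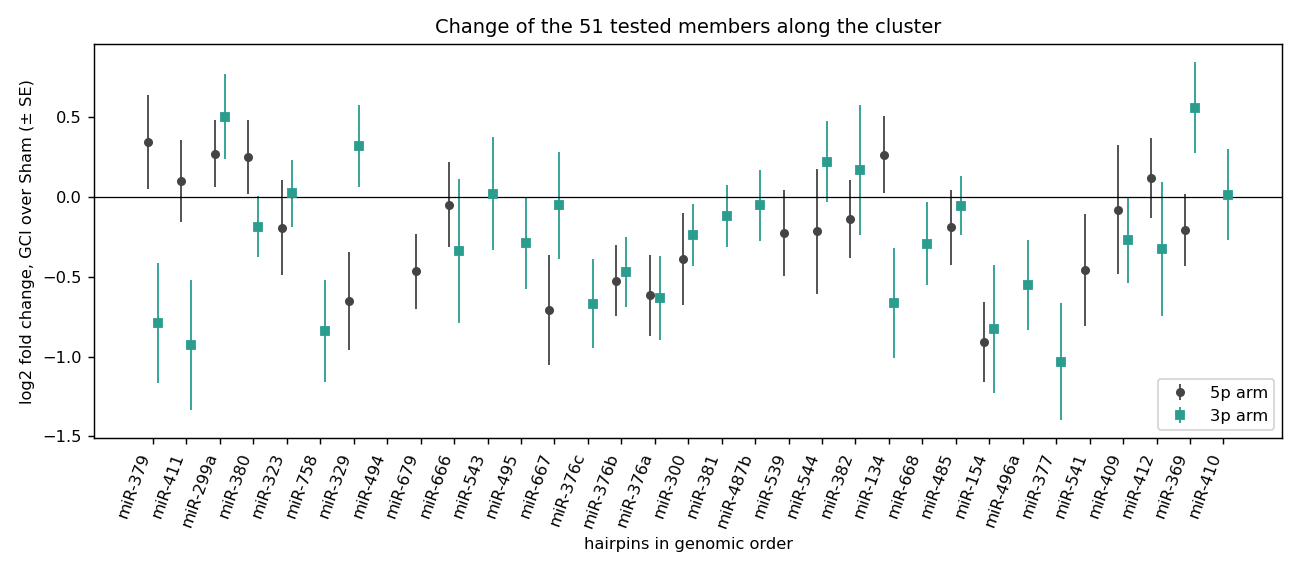
Log2 fold change of GCI over Sham (± SE) for the 51 tested members, with hairpins in genomic order from miR-379 to miR-410 and separate marks for 5p and 3p arms. Values run from −1.03 to 0.56, and members above and below 0 are found at both ends of the cluster.

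Position and base composition did not order the members. Across the 51 tested members the log2 fold change and the order of the hairpins had a Pearson's r of −0.06, and across the 48 with a sequence the log2 fold change and the GC content had an r of −0.03. These points share libraries and are not replicates. The median log2 fold change was −0.21 for the 19 tested members whose hairpins lie inside Mirg and −0.23 for the 28 whose matched hairpins lie upstream of it. The arms of miR-666 and miR-544 are in neither group because their hairpins had no match, though their mature sequences lie upstream of Mirg. It was −0.20 for 22 arms from the 5p side and −0.27 for 29 from the 3p side.

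Both arms could be compared within a library for 18 hairpins, and for several of them the arms lay further apart in GCI libraries 1 and 3 than in Sham. For miR-379 the count ratio of 5p to 3p was 548, 84.7 and 382.2 in GCI libraries 1, 2 and 3, against 119, 113 and 103 in Sham libraries 3, 6 and 7. miR-379-3p itself had 69.6, 201 and 79.1 CPM in GCI and 192, 218 and 195 CPM in Sham, so in GCI libraries 1 and 3 the abundant arm lay above Sham and the rare arm below it. In GCI library 2 the abundant arm lay below Sham and the rare arm within its range. The difference of log2 ratios was 1.22 ± 0.59 (95% interval −0.11 to 2.56, adjusted p = 0.357), in a limma fit over all 100 hairpins of the tables with both arms at a mean of 10 counts or more, adjusted by Benjamini-Hochberg.

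miR-411, next to miR-379 and with the same 3p seed, had ratios of 18.5, 7.62 and 12 in GCI and 4.49, 4.19 and 6.80 in Sham, without overlap. Its rare arm miR-411-3p had 45.5, 168 and 70.9 CPM in GCI and 174, 189 and 179 CPM in Sham. Its abundant arm miR-411-5p had 845, 1285 and 854 CPM in GCI and 779.7, 792 and 1219 CPM in Sham. The log2 ratio differed by 1.24 ± 0.38 (adjusted p = 0.0989, limma, Benjamini-Hochberg), the smallest p among the cluster's hairpins and the one with no overlap, against 16 of all 100 hairpins without overlap (16%). No hairpin of the cluster passed, nor did any of the 100 in the tables (0%); at an unadjusted p under 0.05 the limma fit gave 1 of the 18 and 12 of the 100.

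For miR-134, whose 5p arm is the abundant one, the ratio was 147, 45.4 and 99.1 in GCI and 38.8, 46.8 and 54.0 in Sham, and the rare miR-134-3p had 7.36, 13.7 and 6.76 CPM in GCI and 16.8, 14.4 and 12.7 CPM in Sham. For miR-329, with the 3p arm the abundant one, the ratio of 5p to 3p was 0.0994, 0.329 and 0.106 in GCI and 0.242, 0.360 and 0.334 in Sham. Its rare arm miR-329-5p had 28.1, 67.3 and 39.1 CPM in GCI and 64.3, 71.2 and 76.0 CPM in Sham. In both hairpins GCI libraries 1 and 3 lay outside the Sham range on the side of the abundant arm, and GCI library 2 within it for miR-134 and miR-329 alike. The log2 differences were 0.92 ± 0.42 and −1.02 ± 0.46 (adjusted p = 0.357 each, limma, Benjamini-Hochberg). miR-369, likewise richer in its 3p arm, had ratios of 0.265, 0.680 and 0.498 in GCI and 0.784, 0.544 and 0.993 in Sham. Here GCI libraries 1 and 3 were again below the Sham range and GCI library 2 within it, at a log2 difference of −0.75 ± 0.40.

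For the hairpins of miR-376a and miR-376b the balance differed less. For miR-376a the ratio was 1.19, 1.07 and 1.22 in GCI and 1.20, 1.11 and 1.09 in Sham, a log2 difference of 0.03 with an interval of −0.56 to 0.62, and for miR-376b it was −0.06 with an interval of −0.69 to 0.56. miR-154 had ratios of 7.76, 3.66 and 4.71 in GCI and 4.15, 5.52 and 5.01 in Sham, so that GCI library 1 lay above the Sham range, GCI library 2 below it and GCI library 3 within it. The mean log2 difference was 0.07 with an interval of −0.69 to 0.84, and miR-154-3p was at 12.05, 46.7 and 26.5 CPM in GCI and 54.1, 41.8 and 55.8 CPM in Sham. Among the 18 hairpins, which leave out those with a rare arm under a mean of 10 counts such as miR-381, miR-410 and miR-541, the strongest preferences were those of miR-379, miR-134 and miR-411 for the 5p arm and of miR-323, miR-300 and miR-329 for the 3p arm. miR-323 had ratios of 0.0433, 0.0541 and 0.0630 in GCI and 0.0757, 0.0713 and 0.0445 in Sham, and miR-300 had 0.0510, 0.0635 and 0.0971 in GCI and 0.0886, 0.0795 and 0.0708 in Sham, both with overlap.

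**Figure D3:**
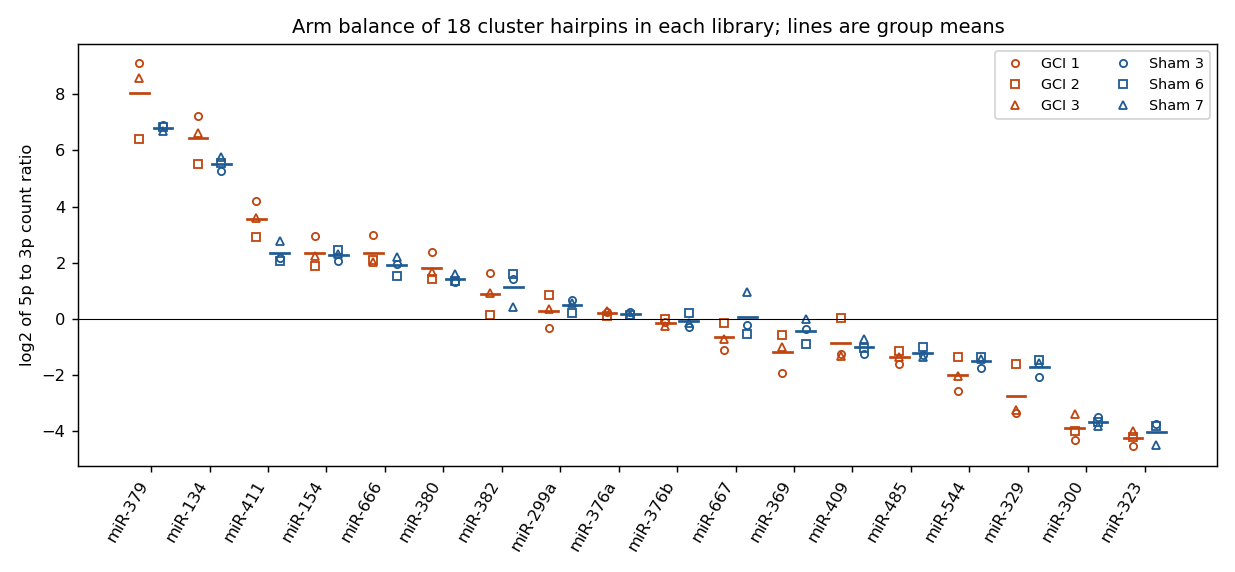
Log2 of the 5p to 3p count ratio of 18 cluster hairpins in each library, ordered by their mean, with GCI libraries (orange) left of Sham libraries (blue) and lines at the group means. Among hairpins with a strong preference, miR-379, miR-134 and miR-411 at the left and miR-329 near the right have GCI libraries 1 and 3 further from 0 than all 3 Sham libraries.

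Counted towards the arm that was higher in Sham, GCI library 1 lay above the Sham range for 13 of the 18 hairpins (72.2%) and below it for 2. GCI library 3 lay above it for 9 (50%) and below it for 2, and GCI library 2 above it for 3 (16.7%) and below it for 5. Over all 100 hairpins of the tables the shares above the Sham range were 43.0%, 38.0% and 27.0% in GCI libraries 1, 3 and 2, and those below it 37.0%, 34.0% and 30.0%. The median shift of the cluster's hairpins towards the higher arm was 0.66, −0.07 and 0.15 log2 units in GCI libraries 1, 2 and 3, beside 0.16, −0.03 and 0.10 over all 100.

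**Figure D4:**
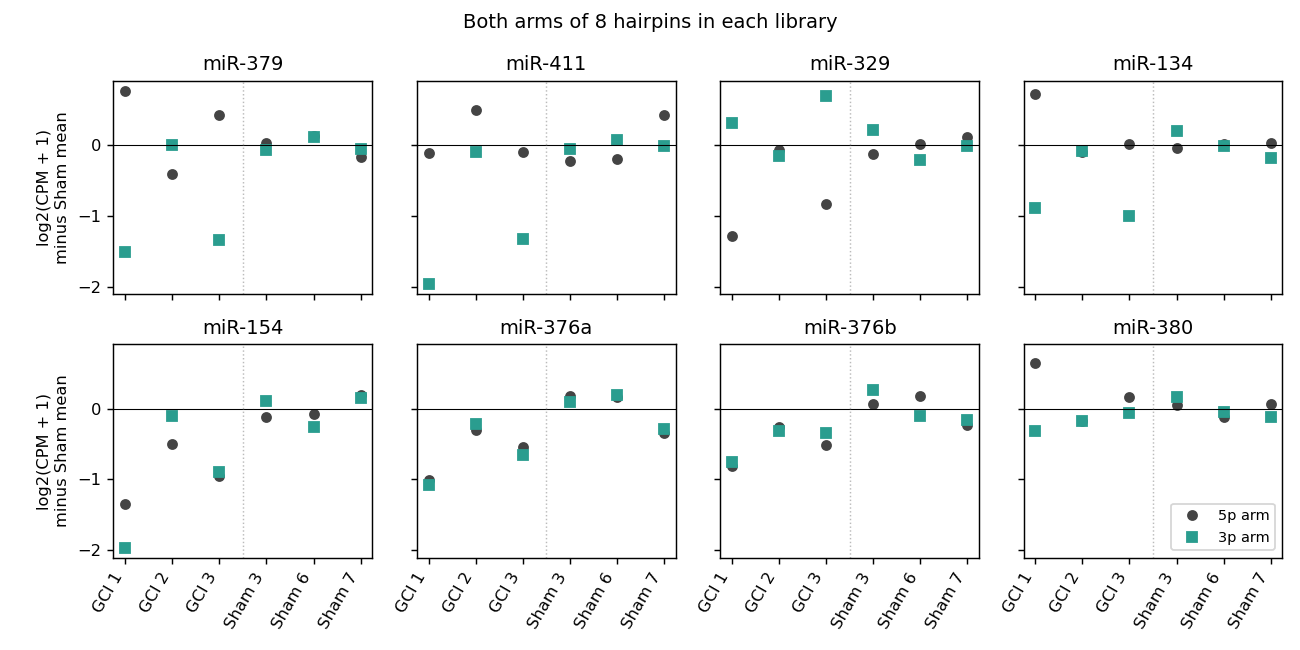
Both arms of 8 cluster hairpins in each library, as log2(CPM + 1) minus the Sham mean, with GCI libraries left of the dotted line and Sham libraries right of it. The arms of miR-379, miR-411, miR-329 and miR-134 separate in GCI libraries 1 and 3, whereas those of miR-376a and miR-376b stay together.

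The GCI libraries differed more among themselves than the Sham libraries did. GCI library 1 was the lowest of all 6 libraries for 33 of the 51 members (64.7%), against 159 of all 440 tested miRNAs (36.1%), and the highest for 6 (11.8%), against 125 of all 440 (28.4%). Its median distance from the Sham mean was −0.52 log2 units over the members and −0.09 over all tested. GCI library 3 had medians of −0.09 and −0.00, and GCI library 2 of −0.08 and −0.05. GCI library 2 lay within the Sham range for 26 of the 51 members (51%), against 189 of all 440 (43%). GCI library 1 also held the most counts of the epithelial and pituitary list (5.10%) and, in sum, of an oligodendrocyte list. The latter held 0.270%, against 0.117% and 0.177% in GCI libraries 2 and 3 and 0.115% to 0.120% in Sham. Its members differed in GCI library 1. There miR-219a-2-3p, miR-338-3p and miR-338-5p lay 1.73, 0.45 and 0.45 log2 units above the Sham mean, while miR-219a-5p lay at −0.46, below all Sham libraries. GCI library 1 was likewise the highest of all 6 for summed lists of leukocyte and microglia miRNAs and of erythrocyte miRNAs. The first list held 0.0740%, against 0.0419% and 0.0529% in GCI libraries 2 and 3 and 0.0411% to 0.0484% in Sham. The second held 0.0558%, against 0.0409% and 0.0511% in GCI libraries 2 and 3 and 0.0394% to 0.0458% in Sham. Their members did not all go the same way in GCI library 1. Of the first list, miR-155-5p, miR-142a-5p, miR-142a-3p and miR-150-5p lay 1.83, 1.82, 1.31 and 0.31 log2 units above the Sham mean. In contrast, miR-223-3p lay at −1.93. Of the second, miR-486a-5p lay at 1.48, miR-144-3p at −0.11 and miR-451a at −0.22, and miR-144-5p was not tested. For a single liver miRNA GCI library 1 had 63.6 CPM, against 26.8 and 21.2 CPM in GCI libraries 2 and 3 and 8.21 to 16.7 CPM in Sham. The part of these in the cluster's values was not tested.

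**Figure D5:**
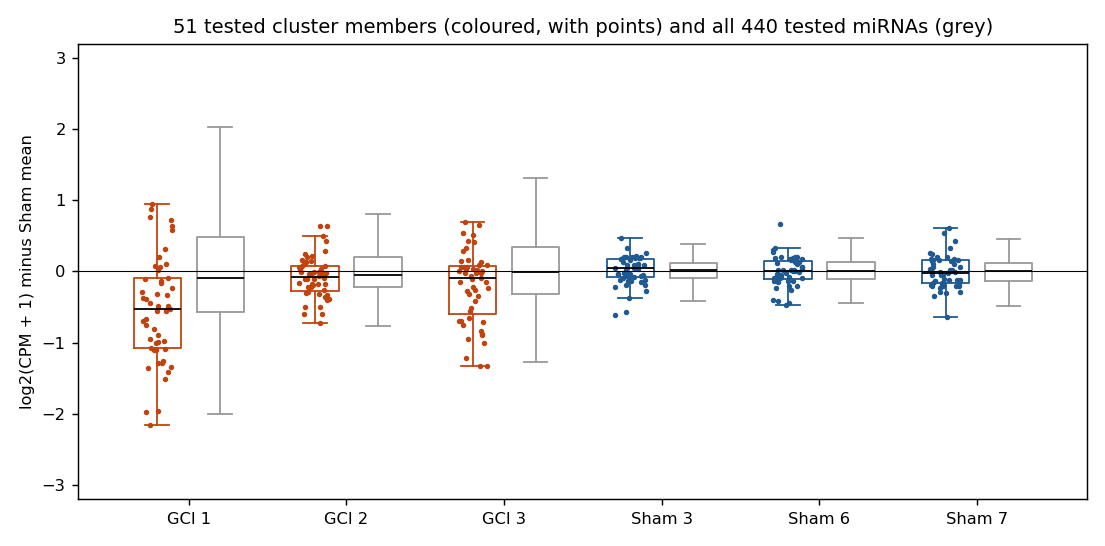
Distance of each library from the Sham mean, in log2(CPM + 1), for the 51 tested members (coloured boxes and points) and all 440 tested miRNAs (grey boxes), where boxes show the quartiles and whiskers reach the farthest value within 1.5 times the box. GCI library 1 has the lowest median of the members, at −0.52, and GCI library 2 lies nearest to the Sham libraries in spread.

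Without GCI library 2, 13 of 52 tested members passed (25%), against 100 of all 456 (21.9%), by edgeR with Benjamini-Hochberg adjustment, where 58 of the 456 were higher (12.7%) and 42 lower (9.21%). Of the 13, 2 rose in GCI libraries 1 and 3, namely miR-379-5p with a log2 fold change of 0.60 ± 0.18 and miR-369-3p with 0.78 ± 0.22. The 11 that fell included miR-411-3p (−1.62 ± 0.23), miR-379-3p (−1.44 ± 0.19), miR-154-5p (−1.15 ± 0.215) and miR-541-5p (−0.99 ± 0.22). In the arm balance, miR-379 (2.04 ± 0.30, adjusted p = 0.0028, against up to 0.747 with another library left out), miR-411, miR-134 and miR-329 passed by limma with Benjamini-Hochberg adjustment, 4 of 18 hairpins against 22 of all 102 (21.6%). With any other single library left out 0 members and 0 hairpins passed, and without GCI library 1 the median log2 fold change of the members was −0.05.

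The neighbouring miRNAs of the Dlk1-Dio3 region upstream of miR-379, among them those antisense to the gene Rtl1, had lower sums in GCI. Their 23 names summed to 24854, 32591 and 29485 CPM in GCI libraries 1, 2 and 3, against 36671, 39359 and 37530 CPM in Sham libraries 3, 6 and 7, without overlap. The cluster's 58 names summed to 59199, 39693 and 51649 CPM in GCI and 46160, 46681 and 44863 CPM in Sham. Of these sums miR-379-5p alone held 38342, 17026 and 30342 CPM in GCI and 22897, 24711 and 20102 CPM in Sham. Without miR-379-5p the cluster's share of raw counts was 2.00%, 2.23% and 2.18% in GCI, against 2.36%, 2.25% and 2.46% in Sham. On the CPM scale of the sums above, GCI library 2 lay above Sham library 6 without miR-379-5p, and the groups overlapped. Of the 20 tested upstream names 17 had a log2 fold change below 0, against 37 of the cluster's 51 and 243 of all 440 (55.2%). Their median was −0.33, and edgeR called 0 of them. At an unadjusted p under 0.05 edgeR gave 4 of them lower, against 8 of the cluster's 51 and 28 of all 440 (6.36%). The difference between the upstream miRNAs and the cluster was not tested.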

How the data were processed

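Small RNA libraries were made from 1 µg of total RNA with the NEBNext small RNA kit, per the labels' protocols, and cutadapt and Bowtie were used, per the submitters' processing notes; the sources used here give no versions, genome build or miRNA reference. The deposited files hold raw read counts per mature miRNA, in 727 rows per table, whose whole numbers and unequal totals show no normalization. For 50 repeated names only the highest-total row was used, leaving 622 names. The members and lists were chosen with earlier results of these data known. Within each group, every pair of libraries differed beyond counting noise (chi-square per degree of freedom at least 44.6), so none was taken as deposited again under another name, which does not show that they are separate animals.

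The test on counts was that of edgeR 4.0.16 under R 4.3.3 (quasi-likelihood, TMM scaling, filterByExpr with a minimum count of 10 and total of 15, group as the only term), which left 440 names at a biological coefficient of variation of 25.3%. Adjustment was by Benjamini-Hochberg over all tested names, at 0.05. CPM was computed on library sizes scaled by TMM. Arm balance, log2 of the 5p to 3p count ratio with 0.5 added to each count, was fitted with limma 3.58.1. Alternatives were other scalings and filters, repeated rows summed, DESeq2 1.42.0, limma-voom, and each library left out in turn. Named members are the 12 most abundant, the 6 with the smallest p and 14 chosen for known roles; named hairpins are the 4 with the smallest p and the 3 at either end of the arm ratio. miR-379-3p, miR-411-3p, miR-329-5p, miR-134-3p, miR-369-3p, miR-154-3p, miR-376b-5p, miR-679-5p and the hairpins miR-154, miR-369, miR-376a and miR-376b were added after their values were seen. Totals of 1423905 to 2023475 counts, before TMM scaling, put the limit of a count of 0 (3 counts) at 1.48 to 2.11 CPM. This limit, like the intervals of shares, covers counting error only because PCR duplicates are not separate molecules.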

Additional observations from a re-analysis of the deposited data

How the results depend on the processing

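No paired analysis was possible because the groups share a single replicate number. The count of cluster members past the threshold was 0 in the reported fit, 1 with DESeq2 and 0 to 13 with single libraries left out, and it stayed at 0 with the other scalings, filters and tools. The cluster's hairpins past the arm-balance threshold numbered 0, and 0 to 4 with single libraries left out, and over all hairpins 0 to 22. Over all miRNAs the edgeR count of 10 was 4 with RLE scaling or without the 5 most abundant miRNAs, 26 with DESeq2, 0 without the epithelial and pituitary list (added after seeing the data), and 0 to 100 with single libraries left out. The mean share of the cluster was 3.49% in GCI and 3.08% in Sham with repeated rows summed, and 8.89% in GCI and 9.11% in Sham over totals without the 5 most abundant miRNAs, where the order of the groups turned. Without miR-379-5p these were 1.5% in GCI and 1.57% in Sham, and 3.92% in GCI and 4.64% in Sham. With single libraries left out the shares ran from 4.6% to 5.48% in GCI and 4.56% to 4.73% in Sham, and without miR-379-5p from 2.09% to 2.21% in GCI and 2.30% to 2.41% in Sham.

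Among named members with other settings, miR-410-3p turned to −0.028 with total counts and −0.057 with limma-voom, and miR-487b-3p to 0.008 with repeated rows summed and 0.011 without the epithelial and pituitary list. Leaving out single libraries, log2 fold changes crossed 0 for miR-134-5p (−0.027 to 0.436), miR-382-3p (−0.082 to 0.544), miR-382-5p (−0.379 to 0.023), miR-410-3p (−0.367 to 0.210), miR-411-5p (−0.133 to 0.342), miR-485-5p (−0.332 to 0.011) and miR-487b-3p (−0.131 to 0.098). The arm balance crossed 0 for miR-154 (−0.226 to 0.315), miR-376a (−0.008 to 0.090) and miR-376b (−0.161 to 0.081). The causes were not tested.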
